A study of Mus musculus with 24 samples.

Results

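The genes described are 10 genes of DNA replication, measured in whole adrenal glands of wild-type mice over 6 projected circadian times. Of these, 6 encode the MCM helicase (Mcm2, Mcm3, Mcm4, Mcm5, Mcm6 and Mcm7), Cdt1 loads that helicase onto DNA, Pcna encodes the sliding clamp, and Rrm1 and Rrm2 encode the subunits of ribonucleotide reductase. Probe sets were chosen by name: every probe set of the Affymetrix mouse genome array whose platform gene symbol is one of the 10 was taken, which gave 29 of 45101 probe sets. Of these, 22 were bright enough to be tested, at least 1 for each gene, among 27022 tested probe sets. The mice were male, 3 months old and of the strain named C57B/6J in the labels. They were held for 2 weeks in 12 h of light and 12 h of darkness, then kept in constant darkness, and glands were taken every 4 h at 12 times, the first 38 h and the last 82 h after the lights had gone off, with 2 arrays a time. Projected circadian time (CT) is these hours minus 12, counted within 24 h, so the arrays fall at CT 2, 6, 10, 14, 18 and 22, in a first cycle (38 to 58 h) and a second cycle (62 to 82 h). The labels name no other treatment or genotype, and do not say whether an array holds the glands of 1 mouse or of several.

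DNA replication is prepared in G1, when the origin recognition complex, Cdc6 and Cdt1 load the ring-shaped MCM helicase onto DNA, a step called licensing. In S phase the rings are activated by Cdc45, the GINS complex and kinases, and the clamp made by Pcna holds the polymerases to DNA while ribonucleotide reductase makes the deoxynucleotides. Transcription of these genes is controlled to a large part by the E2F factors and so goes with cells that enter the cycle. In the adult adrenal gland such cells lie mostly under the capsule, where they renew the cortex, and most cells of the gland do not divide.

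Arrays were not all independent. In 6 pairs, every probe set brighter than a signal of 50 agreed between the arrays to within 5%, and 5 of these pairs joined arrays labelled 24 h apart. Each pair was averaged and counted once, which left 18 profiles, 3 for each CT. The signal of an added control RNA separated a second batch of arrays, which holds CT 10 and CT 18 only (8 arrays, 6 profiles), from a first batch with CT 2, 6, 14 and 22 (16 arrays, 12 profiles). Levels at CT 10 and CT 18 can therefore not be told apart from the batch when they are set against the other times. Markers of adrenal cortex and medulla were bright in every profile, with summed signals of 58700 to 71300 for 7 cortex genes and 33390 to 42820 for 6 medulla genes. Muscle markers summed to between 265.1 and 27110 in the second batch and to between 257.2 and 342.2 in the first batch. Liver markers summed to between 1751 and 17040 in the second batch and to between 1094 and 2731 in the first batch.

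Promoters of the genes were read from RefSeq (build GRCm38.p6) over a window of 250 bases before and 50 bases after the annotated start. The genes lie on chromosomes 1 (Mcm3 and Mcm6), 2 (Pcna), 5 (Mcm7), 6 (Mcm2), 7 (Rrm1), 8 (Mcm5 and Cdt1), 12 (Rrm2) and 16 (Mcm4). Of the 10 genes 9 had an entry, and Mcm7 had one for each of 2 starts. For Mcm5 and Mcm7 the annotated gene reaches further upstream than these starts, to bases 75109468 and 138172111. Part of the bases before those starts thus lies inside the gene. An E2F-type match was defined by the letters TTTCCCGC, TTTCGCGC, TTTGCCGC or TTTGGCGC on either strand, and such matches may overlap each other. The windows of 5 of the 9 genes held at least 1 (Mcm3, Mcm5, Mcm6, Mcm7 and Cdt1), as did 2.26% of all 32851 promoter windows of the table. CCAAT, on either strand, was found in 8 of the 9 genes and in 37.4% of all windows. The E-box CACGTG was found in 0 of the 9 genes and in 7.15% of all windows. A match describes letters and does not show that a factor binds. The 250 bases before the start follow, 5′ to 3′ on the gene's own strand, for the 3 genes whose 24 h rhythm passed the test in every fit (Mcm5, Mcm6 and Mcm7) and for Pcna and Mcm2, as a clamp gene and a helicase gene with no match. Matches and the rhythm test did not go together throughout. Mcm3 (2 matches, which begin at bases 20 and 39 of the transcript side) and Cdt1 (1 match, at base 33 of that side) held matches and passed in no fit, and the window of the second Mcm7 start held 0. Capitals mark the E2F-type letters, and a run of 12 capitals is a pair of matches on opposite strands that overlap.
Mcm5, chr8:75109259-75109508 (plus strand): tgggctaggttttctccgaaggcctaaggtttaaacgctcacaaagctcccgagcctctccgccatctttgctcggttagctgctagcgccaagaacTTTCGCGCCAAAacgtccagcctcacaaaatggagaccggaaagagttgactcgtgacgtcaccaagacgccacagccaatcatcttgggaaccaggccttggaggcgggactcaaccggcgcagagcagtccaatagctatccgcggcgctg
Mcm6, chr1:128359706-128359955 (minus strand): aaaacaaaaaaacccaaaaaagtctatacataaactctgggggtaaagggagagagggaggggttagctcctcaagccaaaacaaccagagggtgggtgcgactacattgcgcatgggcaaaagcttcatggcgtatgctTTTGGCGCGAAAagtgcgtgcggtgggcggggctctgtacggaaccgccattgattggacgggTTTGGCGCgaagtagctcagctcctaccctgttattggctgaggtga
Mcm7, upstream start, chr5:138171884-138172133 (minus strand): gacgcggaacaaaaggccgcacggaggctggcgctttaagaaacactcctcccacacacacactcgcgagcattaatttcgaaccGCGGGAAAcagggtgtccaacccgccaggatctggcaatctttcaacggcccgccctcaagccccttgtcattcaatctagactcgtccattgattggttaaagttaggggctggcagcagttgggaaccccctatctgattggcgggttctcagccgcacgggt
Pcna, chr2:132253181-132253430 (minus strand): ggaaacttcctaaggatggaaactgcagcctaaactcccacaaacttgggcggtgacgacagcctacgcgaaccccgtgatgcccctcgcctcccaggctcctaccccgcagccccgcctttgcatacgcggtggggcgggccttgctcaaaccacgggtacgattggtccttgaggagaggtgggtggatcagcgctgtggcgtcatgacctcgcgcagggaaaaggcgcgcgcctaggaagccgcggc
Mcm2, chr6:88898781-88899030 (minus strand): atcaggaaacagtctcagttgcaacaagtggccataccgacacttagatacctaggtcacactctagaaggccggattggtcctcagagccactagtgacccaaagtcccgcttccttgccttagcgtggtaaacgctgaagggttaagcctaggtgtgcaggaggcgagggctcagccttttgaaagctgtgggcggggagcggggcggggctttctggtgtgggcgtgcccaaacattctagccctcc

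Of the 10 genes, 9 had their highest mean level at CT 22, late in the projected night, and Mcm2 had its highest at CT 14. Each gene is represented here by its brightest tested probe set, and levels are signals on the linear scale of the deposited values unless log2 is named. Among the 22 tested probe sets, 16 had their highest mean at CT 22, 3 at CT 10, 2 at CT 14 and 1 at CT 18. The lowest means were spread, with 8 probe sets lowest at CT 14, 7 at CT 10, 4 at CT 18 and 3 at CT 6. These rankings mix the array batches, so places of CT 10 and CT 18 in them cannot be told apart from the batch. Among the 4 times of the first batch, 18 were highest at CT 22, 3 at CT 14 and 1 at CT 6. There 12 were lowest at CT 14, 9 at CT 6 and 1 at CT 2. The share of all tested probe sets highest at CT 22 was not computed. In whole glands, fewer cells of a type and less RNA per cell cannot be told apart.

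**Figure D1:**
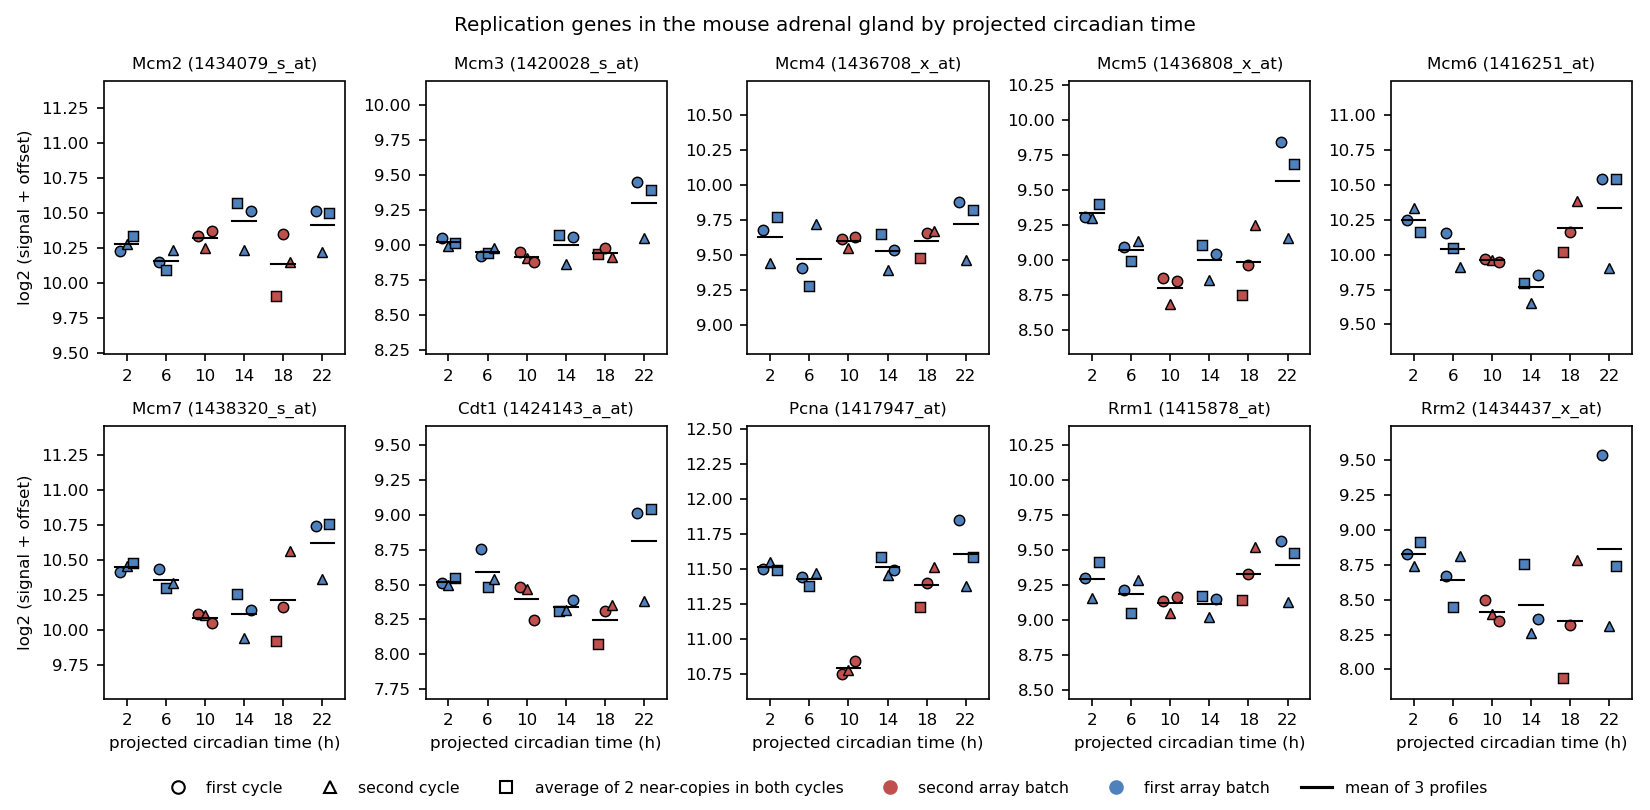
Level of each gene's brightest tested probe set (y axis, log2 of signal plus an offset of 51) in each of the 18 profiles by projected circadian time (x axis, h). Black bars are means of 3 profiles, red points are the second array batch and blue points the first, and symbols show the cycle. For most genes CT 22 holds a pair of high profiles and 1 profile (82 h replicate 1) at the level of the other times, and Pcna is lowest at CT 10.

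Mcm5, a subunit of the MCM ring, had the widest gap between its highest and lowest mean among the helicase genes, 0.76 on the log2 scale between CT 22 and CT 10. Probe set 1436808_x_at had signals of 582.1, 578 and 626.6 at CT 2, of 493.9, 458.7 and 511.7 at CT 6, and of 416.7, 360.5 and 411.2 at CT 10. It had 500.5, 411.7 and 475.8 at CT 14, 380.1, 447.6 and 557.9 at CT 18, and 870.2, 518.7 and 774.8 at CT 22. A pair of profiles at CT 22 lay above all 15 profiles of the other times, and the third lay below all of CT 2. On the log2 scale the level averaged 9.34 ± 0.06 at CT 2, 8.80 ± 0.10 at CT 10 and 9.56 ± 0.36 at CT 22 (SD, n = 3 each). A 24 h cosine fitted to all 18 profiles had an amplitude (mean to peak) of 0.32 ± 0.07 (SE) on the log2 scale, a peak-to-trough ratio of 1.56 and a peak at CT 23.5 (limma moderated F test, adjusted p = 0.0179 over all tested probe sets). The other tested Mcm5 probe set, 1415945_at, had an amplitude of 0.30 ± 0.06 with a peak close to CT 22 (adjusted p = 0.00963). Probe sets marked x_at or s_at may also bind transcripts of related genes, while those marked at alone are designed for a single one.

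Mcm6, another subunit of the ring, showed a similar course with its low point at CT 14. Probe set 1416251_at had signals of 1167, 1241 and 1092 at CT 2, of 1090, 1007 and 913.2 at CT 6, and of 949.2, 944.9 and 937.4 at CT 10. It had 840.7, 753.9 and 872.4 at CT 14, 986.2, 1097 and 1283 at CT 18, and 1440, 907.6 and 1440 at CT 22. All 3 profiles of CT 14 lay below all 15 others, while 1 profile of CT 22 lay just above CT 14 and the other two lay above all 15 profiles of the other times. The amplitude was 0.25 ± 0.06 on the log2 scale, a peak-to-trough ratio of 1.41, with a peak at CT 23.5 (adjusted p = 0.0318).

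Mcm7, also part of the ring, had signals for probe set 1438320_s_at of 1316, 1355 and 1378 at CT 2, of 1336, 1210 and 1242 at CT 6, and of 1058, 1050 and 1006 at CT 10. It had 1172, 930.9 and 1077 at CT 14, 918.8, 1096 and 1465 at CT 18, and 1666, 1270 and 1682 at CT 22. The profiles of CT 2 and CT 10, which lie in different array batches, did not overlap. CT 18 held the lowest of all 18 profiles and also 1 above all of CT 2. That high value, 1465, came from 78 h replicate 2, whose ratio of 5′ to 3′ Gapdh signal was 0.0386. The same profile gave the highest CT 18 values of Mcm5 1436808_x_at (557.9) and Mcm6 1416251_at (1283). The amplitude was 0.25 ± 0.06 on the log2 scale with a peak at CT 0.2 (adjusted p = 0.0233). The other 3 tested Mcm7 probe sets had amplitudes of 0.06 to 0.16 and did not pass the test (adjusted p of 0.0909 to 0.582).

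Among the 22 tested probe sets 5 passed the rhythm test in this fit (adjusted p under 0.05), against 10.2% of all tested probe sets. These were both probe sets of Mcm5, both of Mcm6 and 1 of Mcm7, with fitted peaks from close to CT 22 (Mcm5 1415945_at) to CT 2.0 (Mcm6 1438852_x_at). With the array batch as a block, a term that takes the mean difference between the batches out of the fit, 5 probe sets were called again, against 16% of all tested probe sets: both of Mcm5, 1 of Mcm6, 1 of Mcm7 and Pcna. Within the 12 profiles of the first batch 4 were called, against 10.1% of all: Mcm5 1436808_x_at, Mcm6 1416251_at, Mcm7 1438320_s_at and Mcm2 1448777_at. The brightest probe sets of Mcm5, Mcm6 and Mcm7 thus passed in all 3 fits, with amplitudes of 0.34, 0.30 and 0.25 within the first batch (adjusted p = 0.0308, 0.0373 and 0.0327). The median amplitude of the 22 probe sets was 0.16, against 0.118 for all tested probe sets, and 0.158 against 0.0956 with the batch as a block. In that fit 10 of the 22 peaked between CT 20 and CT 24 and 8 between CT 0 and CT 4, called or not. The share of all tested probe sets in those windows was not computed, so these counts have no background. The 5 called member probe sets peaked from CT 20.1 (Pcna) to just past CT 24 (Mcm7). Of all called probe sets 12.7% peaked between CT 20 and CT 24 and 8.43% between CT 0 and CT 4.

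**Figure D2:**
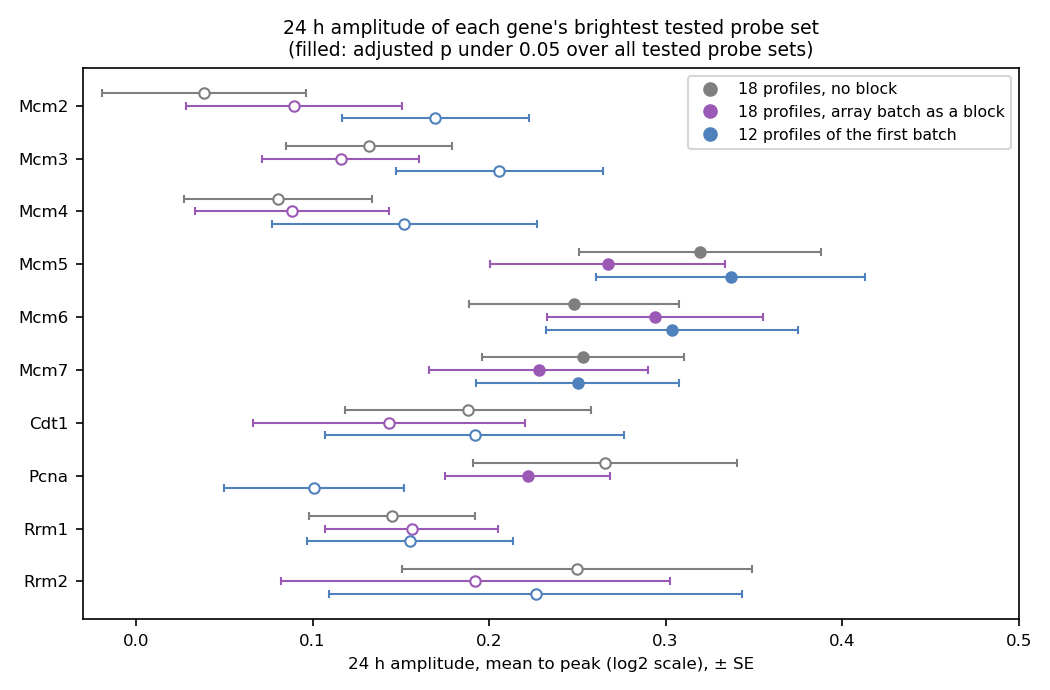
Amplitude of the 24 h cosine (x axis, log2 scale, mean to peak, with its SE as the bar) for the brightest tested probe set of each gene (y axis) in 3 fits: grey for the 18 profiles without a block, purple for the array batch as a block and blue for the 12 profiles of the first batch. Filled points passed an adjusted p under 0.05. Mcm5, Mcm6 and Mcm7 are filled in all 3 fits, Pcna is filled only with the batch as a block, and the other 6 genes are open.

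Pcna, the clamp on which replicative polymerases slide, was lowest at CT 10, while among the other 5 times neighbours in the order of their means overlapped. Its single probe set, 1417947_at, had signals of 2843, 2957 and 2842 at CT 2, of 2730, 2619 and 2796 at CT 6, and of 1668, 1709 and 1782 at CT 10. It had 3018, 2766 and 2840 at CT 14, 2353, 2661 and 2878 at CT 18, and 3654, 2612 and 3031 at CT 22. The 3 profiles of CT 10 lay below all 15 others without overlap, of which the 12 outside CT 18 lie in the other array batch. Within the second batch, CT 18 was above CT 10 by 0.59 ± 0.09 (SE) on the log2 scale (adjusted p = 0.00031). The cosine had an amplitude of 0.27 ± 0.07 without a block (adjusted p = 0.0668), of 0.22 ± 0.05 with the block and a peak at CT 20.1 (adjusted p = 0.0105), and of 0.10 ± 0.05 within the first batch (adjusted p = 0.402). Without the 4 profiles whose muscle gene Acta1 was over a signal of 1000, all of the second batch, the amplitude with the block was 0.157 (adjusted p = 0.118).

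Of the tested probe sets 2 were higher at CT 18 than at CT 10, against 10.8% of all tested probe sets, and 1 was lower, against 10.9%. Those shares are near or below the background. Besides Pcna, Mcm5 1415945_at was higher at CT 18 by 0.53 ± 0.14, with signals of 383.2, 399.7 and 457.1 at CT 18 and of 225.8, 353.1 and 242.8 at CT 10 (adjusted p = 0.00996). The brighter Mcm5 probe set differed by 0.19 ± 0.15 (adjusted p = 0.421). Muscle markers in those profiles summed to 27110, 573.2 and 6197 at CT 18 and to 8615, 9170 and 265.1 at CT 10. Without the 4 profiles high in Acta1, which leaves 1 profile at each of these times, the spread comes from the other times alone. The differences of Pcna and Mcm5 1415945_at were then 0.57 ± 0.16 and 0.62 ± 0.19 (adjusted p = 0.0622 and 0.0822), against 0.59 and 0.53 with all profiles, and 1 member probe set was called, Mcm3 1420029_at (0.59 ± 0.15, adjusted p = 0.0431). Mcm5 1415945_at was also not called without 46 h replicate 1 (0.43 ± 0.14, adjusted p = 0.0604). Without the averaged CT 18 profile 5 probe sets were called.

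Mcm2, the subunit that also carries a histone-binding tail, was the 1 gene with its highest mean at CT 14, and its levels at CT 22 were close to those at CT 14. Probe set 1434079_s_at had signals of 1148, 1190 and 1244 at CT 2, of 1085, 1043 and 1157 at CT 6, and of 1241, 1170 and 1277 at CT 10. It had 1476, 1155 and 1409 at CT 14, 907.2, 1253 and 1085 at CT 18, and 1412, 1144 and 1397 at CT 22. Highest and lowest times overlapped, and the amplitude was 0.04 ± 0.06 (adjusted p = 0.863). The second probe set, 1448777_at, had signals of 492.4, 634.4 and 265.2 at CT 18 and of 699.5, 727.2 and 755.7 at CT 10, a difference of -0.67 ± 0.19 on the log2 scale (adjusted p = 0.0172). Its lowest value came from 78 h replicate 2, whose ratio of 5′ to 3′ Gapdh signal was 0.0386. Without that profile the difference was -0.35 ± 0.11 (adjusted p = 0.0354), and without 46 h replicate 2 it was -0.64 ± 0.22 and not called (adjusted p = 0.0542). Without the 4 profiles high in Acta1 it was -0.24 ± 0.15 (adjusted p = 0.448).

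Mcm3, Mcm4 and the loading factor Cdt1 did not pass the rhythm test in any of the 3 fits. Mcm3 had signals of 649.4, 479.8 and 621.5 at CT 22, against 415 to 487.9 in the other 15 profiles, and an amplitude of 0.13 ± 0.05 (adjusted p = 0.15). Mcm4 had 888.3, 654 and 851.6 at CT 22, against 570.4 to 822.8 elsewhere, and an amplitude of 0.08 ± 0.05 (adjusted p = 0.493). Cdt1 had 466.2, 282.8 and 475.9 at CT 22, against 218.9 to 379.8 elsewhere, and an amplitude of 0.19 ± 0.07 (adjusted p = 0.167). In each of the 3, a pair of CT 22 profiles exceeded every other profile and the third did not.

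The ribonucleotide reductase genes did not pass the rhythm test in any of the 3 fits either. Rrm1, the large catalytic subunit, had signals of 706.1, 509.1 and 663.2 at CT 22, against 468 to 685.6 elsewhere, and an amplitude of 0.15 ± 0.05 (adjusted p = 0.112). Rrm2, the small subunit made in S phase, had 690.3, 266.6 and 377.7 at CT 22, against 194.2 to 430.5 elsewhere, and an amplitude of 0.25 ± 0.10 (adjusted p = 0.198). A single profile of each gene, 58 h replicate 1, lay above all 15 profiles of the other times. For Rrm1 the value of 685.6 came from 78 h replicate 2, whose ratio of 5′ to 3′ Gapdh signal was 0.0386. The next highest Rrm1 value outside CT 22 was 631.1, below the 663.2 of the averaged CT 22 profile.

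The 3 profiles of CT 22 did not lie together. In 58 h replicate 1 and in the averaged profile of 58 h replicate 2 and 82 h replicate 2, all 22 tested probe sets were above their value in 82 h replicate 1, as were 31.2% of all tested probe sets. The medians of these differences were 0.42 and 0.35 on the log2 scale, against -0.04 and 0.01 over all tested probe sets. In 16 of the 22 both of these profiles also exceeded all 9 profiles of the other first-batch times, against 4.23% of all tested probe sets. The profile 82 h replicate 1 was set apart because member levels were low in it, which favours the members in these comparisons. The 22 probe sets also belong to 10 genes and are not independent, so the shares describe and do not test. The mean log2 level of Mcm2 to Mcm7 was 10.16 in 58 h replicate 1, 10.12 in the averaged profile and 9.69 in 82 h replicate 1, against 9.49 to 9.86 in the other 15 profiles. The only CT 22 profile that lies in the second cycle alone was thus a low one, and the averaged profile carries labels of both cycles.

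**Figure D3:**
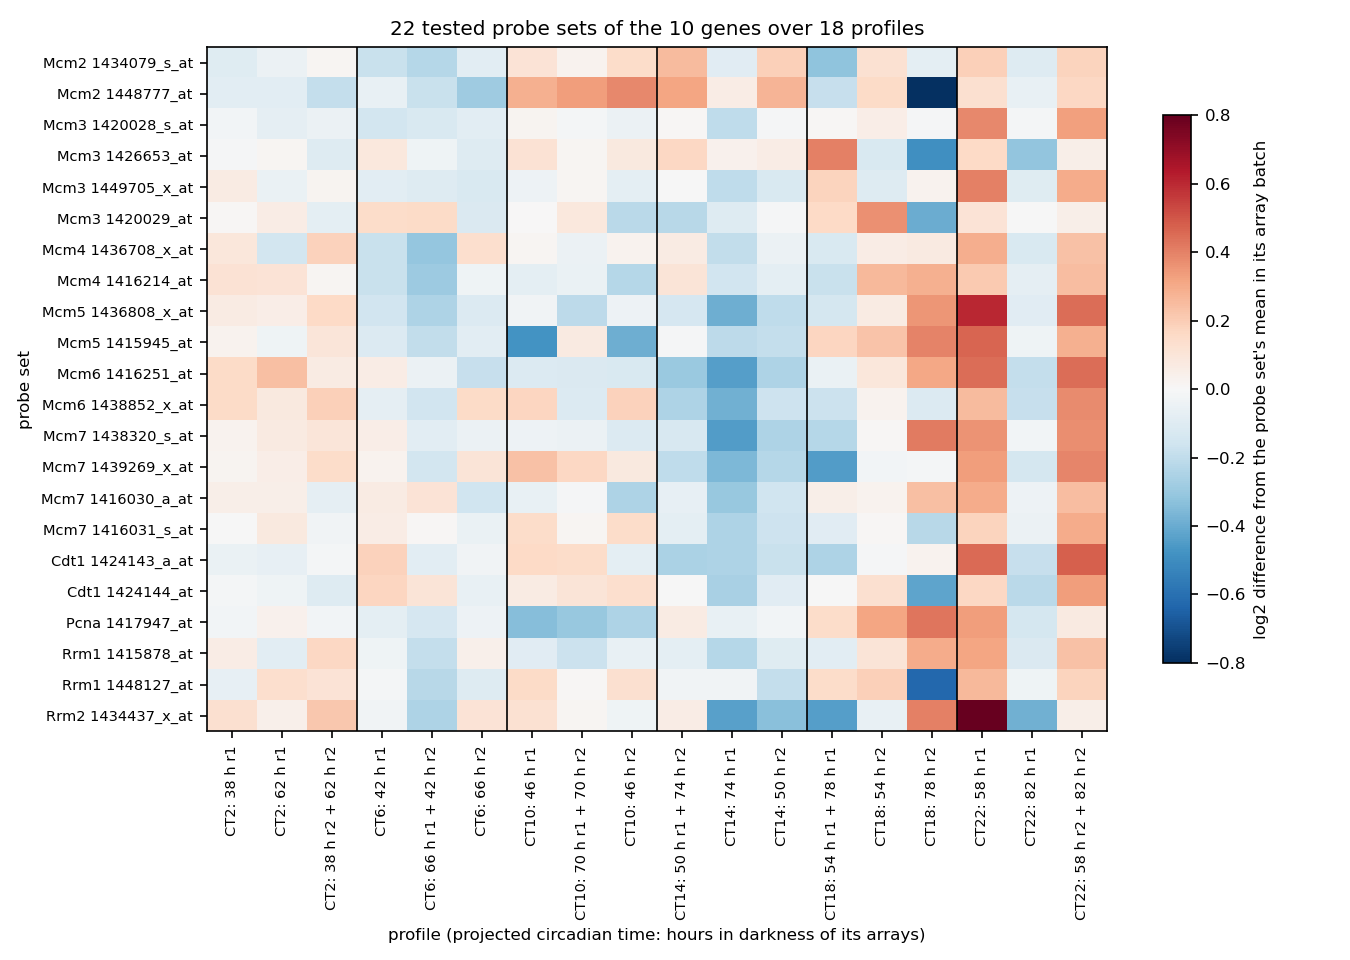
Each of the 22 tested probe sets (rows) in each of the 18 profiles (columns, in order of CT), as the log2 difference from the probe set's own mean in its array batch (colour). Red columns at CT 22 are 58 h replicate 1 and the averaged profile of 58 h and 82 h replicate 2, while the column of 82 h replicate 1 between them is pale or blue.

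Marker sums of other cell types differed between these profiles. The summed signal of 3 fat cell markers (Adipoq, Lep and Fabp4) was 16620 in 58 h replicate 1, 17170 in the averaged profile and 21610 in 82 h replicate 1, within a range of 16620 to 22370 over all profiles. The lowest mean of Mcm2 to Mcm7, 9.49, was that of 74 h replicate 1, which had the highest fat marker sum, 22370. This pairing did not hold throughout. In 78 h replicate 2 a fat marker sum of 21360 stood beside a helicase mean of 9.82. That profile lies in the second batch, with a ratio of 5′ to 3′ Gapdh signal of 0.0386 and a liver marker sum of 17040. In 42 h replicate 1 a lower sum, 17740, stood beside a lower mean, 9.69. Mitosis markers summed to 5390, 4376 and 4298 in the same order of CT 22 profiles, against 2689 to 4698 in the other 15. Leukocyte markers summed to 5656, 8518 and 7159 in that order, and the range over all profiles was 5656 to 9491. No fat or leukocyte marker was at 0 in any profile, and the part of these cells in the level of the replication genes was not tested.

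**Figure D4:**
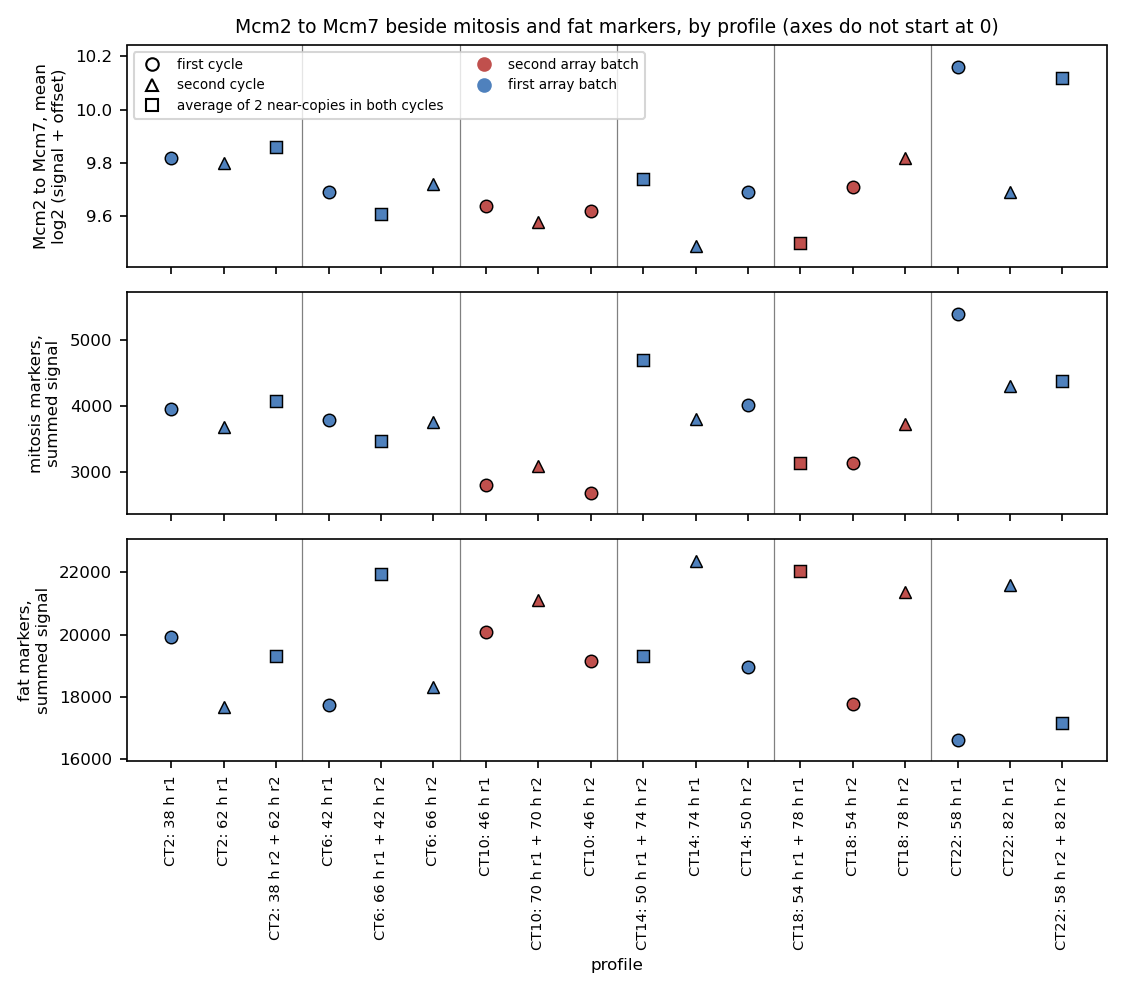
Mean log2 level of Mcm2 to Mcm7 (top), summed signal of 12 mitosis markers (middle) and of 3 fat cell markers (bottom) in each profile, ordered by CT along the x axis. Red is the second array batch, blue the first, and the axes do not start at 0. The highest helicase levels, 10.16 and 10.12, stand in the profiles with the lowest fat marker sums, 16620 and 17170.

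Leaving out single profiles moved the counts. Without a block, the count of 5 became 3 when 38 h replicate 1, 62 h replicate 1, 74 h replicate 1, 58 h replicate 1 or the averaged CT 22 profile was left out. Those 5 omissions called 6.92%, 6.86%, 10.6%, 7.93% and 8.6% of all tested probe sets in that order, against 10.2% with all profiles. With the block the count of 5 became 9 without 82 h replicate 1 (16.5% of all tested probe sets). It became 3 without 74 h replicate 1 (12.4%) or the averaged CT 22 profile (15.7%), against 16% with all profiles. Within the first batch the count of 4 became 12 without 82 h replicate 1, when 11.3% of all tested probe sets were called. It became 2 without the averaged CT 2 profile (8.29% of all tested probe sets) and 0 without 50 h replicate 2 (5.53%). It became 1 without 58 h replicate 1 (9.09%), 74 h replicate 1 (6.43%), the averaged CT 14 profile (6.08%) or the averaged CT 22 profile (8.77%). The share with all first-batch profiles was 10.1%. Over the 18 single omissions, Mcm5 and Mcm7 passed 18 times each without a block and Mcm6 13 times. With the block, Mcm6 and Pcna passed 18 times each, Mcm5 16 times and Mcm7 7 times. Over the 12 omissions within the first batch, Mcm7 passed 7 times and Mcm5 and Mcm6 4 times each. Without all 6 averaged profiles, an alternative chosen after seeing the data, 0 of the 22 passed without a block, 1 with it and 0 in the first batch alone, against 1.99%, 5.54% and 2.88% of all tested probe sets.

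A test of any difference among the 6 times called 12 of the 22 probe sets, against 52.9% of all tested probe sets, a comparison that also takes in the difference between the array batches. That count became 5 without 58 h replicate 1 or the averaged CT 22 profile. Among the 4 times of the first batch 2 were called (Mcm2 1448777_at and Mcm7 1438320_s_at), against 8.54% of all. Between the second and the first cycle 0 of the 22 differed (limma), and 0% of all tested probe sets were called in either direction. At an unadjusted p under 0.05 the cycle test gave 2 of the 22 and 2178 of 27022. That comparison used 13 profiles, 6 of the second cycle and 7 of the first. Called or not, 21 of the 22 were lower in the second cycle, with a median difference of -0.118 on the log2 scale, against 50.1% and a median of -0.000222 for all tested probe sets. Without 82 h replicate 1, or without 58 h replicate 1, the members' count was 15 and their median -0.0247, against 53% and 52.9% of all. For a change of the 24 h course between the cycles 0 of the 22 passed, adjusted or unadjusted, and of all tested probe sets 0 passed adjusted and 537 unadjusted.

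All 45 pairs of the 10 genes had a correlation above 0 from profile to profile. Over the 18 profiles, after the mean of each batch was taken off, the pairs had a median Pearson r of 0.66, a range of 0.06 to 0.93, and 33 pairs above 0.5. Mcm5 with Rrm1 (0.93) and Mcm5 with Mcm7 (0.91) were the closest pairs, and Mcm2 with Pcna (0.06) and Mcm2 with Mcm6 (0.10) the loosest. All points share the same arrays, so this is a description with no test. No share of all gene pairs is set beside these counts, and no r without the CT 22 profiles is given for them. The batch-centred mean of Mcm2 to Mcm7 was 0.38 in 58 h replicate 1 and 0.33 in the averaged CT 22 profile. It was -0.29 to 0.18 in the other profiles. Probe sets of one gene did not always agree: the second Rrm1 probe set had an r of -0.01 with the brighter one, and 2 Mcm3 probe sets had r of 0.17 and 0.19, against 0.87 for Mcm3 1449705_x_at. The 7 probe sets not tested belong to Mcm3, Mcm5, Mcm6, Cdt1, Rrm1 and Rrm2. The brightest of them was Rrm2 1448226_at with a mean log2 of 7.80, just under the limit of 7.87, and the mean signals of all 7 lay between 10.9 and 172.

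The genes outside the set whose level was most like the mean of Mcm2 to Mcm7 over the 18 profiles were Pter, Emx1, Ccnb2, Hydin and Pitrm1. Their Pearson r was 0.93, 0.89, 0.89, 0.88 and 0.87 after the batch means were taken off, and between 0.68 and 0.84 without the CT 22 profiles. Ccnb2, the mitotic cyclin B2, was the one with a rhythm in all 3 fits, with an amplitude of 0.31 ± 0.07 and a peak at CT 22.3 without a block (adjusted p = 0.0332).

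Other replication genes were taken from lists by role, with 1 probe set a gene, and are set against 11.3% of 13880 tested genes called without a block, 16.7% with it and 11.2% in the first batch alone. Of 10 tested genes of origin recognition and licensing besides the set, which load the helicase or restrain that step, 0 were called by limma in any of the 3 fits, while 2, 1 and 1 passed an unadjusted p under 0.05 in the fits in that order. The lowest p with the block was that of Gmnn, the inhibitor of Cdt1 (amplitude 0.11 ± 0.03, adjusted p = 0.0533). Of 10 genes of helicase activation 1 was called in each fit, the replisome gene Cdc45 within the first batch (adjusted p = 0.0296) and the GINS subunit gene Gins4 in the other two. With the block Gins4 had an amplitude of 0.17 ± 0.04 and a peak at CT 21.8 (adjusted p = 0.0275). Gins4 was also higher at CT 18 than at CT 10 by 0.51 ± 0.06 (adjusted p = 1.45e-05). Orc6, a subunit of the origin recognition complex, was lower at CT 18 than at CT 10 (-0.28 ± 0.09, adjusted p = 0.0313), the 1 other licensing gene called in that comparison. Of all tested probe sets 10.8% were higher at CT 18 and 10.9% lower.

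Of 21 polymerase, clamp loader and fork genes, 3 were called without a block, 6 with it and 3 within the first batch. Tipin, part of the fork protection complex, had an amplitude of 0.30 ± 0.06 with the block and a peak at CT 3.6 (adjusted p = 0.00845). Rfc3, which loads the clamp, had 0.24 ± 0.05 and a peak at CT 22.7 (adjusted p = 0.0137), and Rfc2 had 0.14 ± 0.04 and a peak at CT 21.9 (adjusted p = 0.0312). Of the 21, 4 were higher at CT 18 than at CT 10 and 0 were lower, against 10.8% and 10.9% of all tested probe sets. The profiles high in muscle markers were kept in this comparison. Among them, Rfc3, Rfc2 and the polymerase delta subunit gene Pold3 were higher by 0.59, 0.36 and 0.29 (adjusted p = 7.24e-05, 0.00237 and 0.0372).

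Of 7 genes of deoxynucleotide supply besides Rrm1 and Rrm2, Dut, which removes dUTP, was called in each of the 3 fits, with an amplitude of 0.28 ± 0.06 and a peak at CT 0.3 without a block (adjusted p = 0.0215). Of 18 genes of E2F and G1 to S control 2 were called without a block, 3 with it and 3 within the first batch. The 3 called with the block were the D cyclins Ccnd1 and Ccnd3 and the repressor E2f6, with amplitudes of 0.15 to 0.16 and peaks between CT 17.8 and CT 20.1. In this list 0 were higher at CT 18 than at CT 10 and 1 was lower, Ccnd2 (-0.16 ± 0.05, adjusted p = 0.0273), named after its values were seen. Of all tested probe sets 10.8% were higher at CT 18 and 10.9% lower. Among 7 genes of chromatin assembly 0, 2 and 3 were called without a block, with it and within the first batch. The maintenance methylation genes Dnmt1 and Uhrf1 peaked at CT 17.9 and CT 17.2 with the block (adjusted p = 0.0126 and 0.0239). Of 9 tested mitosis markers 1 was called without a block (Ccnb2), 3 with it (Ccnb2, Cdk1 and Top2a) and 1 within the first batch (Ccnb2). With the block the 3 had amplitudes of 0.26 to 0.31 and peaks between CT 18.9 and CT 21.1. The median amplitude with the block was 0.143 for the 7 helicase and licensing genes of the set and 0.192 for Pcna, Rrm1 and Rrm2, against 0.0691 for the other licensing genes, 0.216 for the mitosis markers and 0.0927 for all tested genes.

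**Figure D5:**
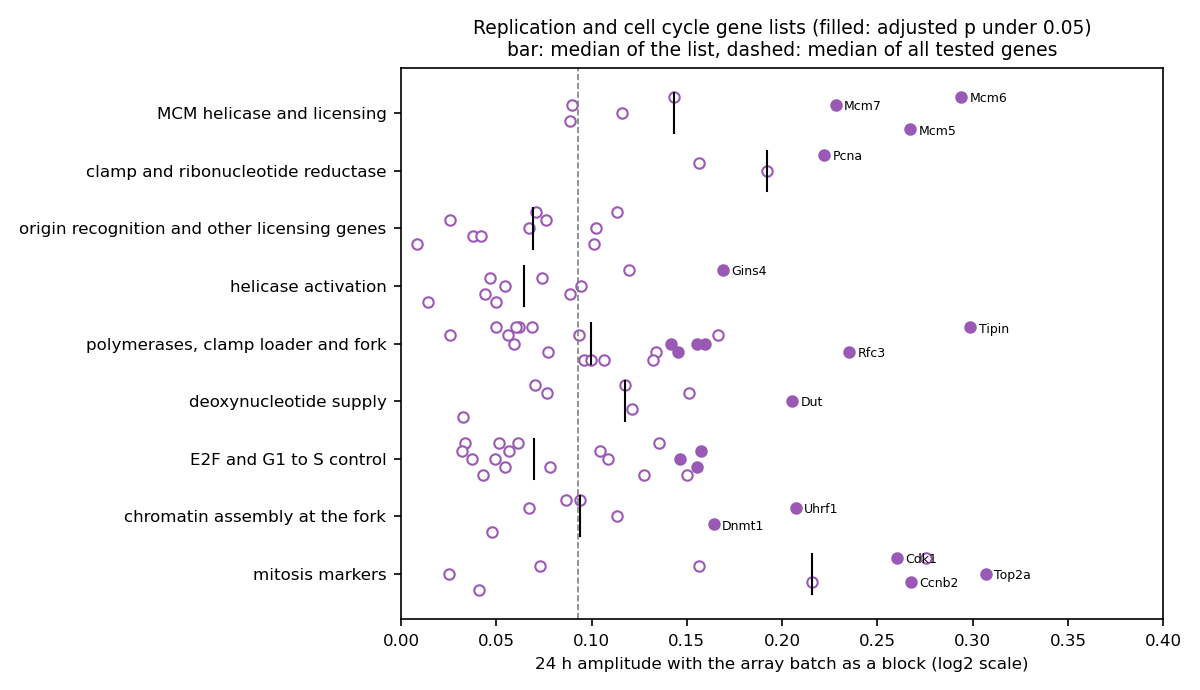
Amplitude of the 24 h cosine with the array batch as a block (x axis, log2 scale) for each tested gene of 9 lists (y axis), 1 point a gene. Filled points passed an adjusted p under 0.05, bars are list medians, and the dashed line is the median of all tested genes, 0.0927. No other licensing gene is filled, and the mitosis markers have the highest list median, 0.216.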

How the data were processed

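The authors deposited linear probe set intensity values, per the file headers 1 column per array, and no source used here gives their summary or scaling method. Arrays hold no read counts, so their number limits the precision. Array medians of log2 lay between 8.14 and 8.32, and no further normalization was applied. An offset of 51, the 10th percentile of the table, was added before log2 was taken, which understates changes of dim probe sets. Probe sets with a mean under the 40th percentile (a signal of 183) and 64 controls were left out. Near-copies were averaged, and batches were set by a signal of 300 of the ThrX-3 control.

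The tests were limma 3.58.1 (R 4.3.3) moderated F tests with trend, with Benjamini-Hochberg adjustment over all 27022 probe sets and a threshold of 0.05, for a cosine and sine of 24 h, levels of CT, or the cycle. The scripts were tested on simulated data. The 2 arrays of a time are not stated to be separate animals, so p-values measure the spread between profiles, which may be technical. Each gene was led by its brightest tested probe set, up to 4 genes of each pathway list with the lowest p were named, as were the 5 genes most like the helicase mean. The members and lists were chosen with earlier results of these data known.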

Additional observations from a re-analysis of the deposited data

How the results depend on the processing

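The counts of rhythmic member probe sets (5 without a block, 5 with the array batch as a block, 4 within the first batch) stayed within 1.5 times of these values with an offset of 1, an offset 4 times larger, no filter on dim probe sets, quantile normalization, centred arrays, limma without trend, and without the profile low in 5′ Gapdh signal. Without the filter the counts stayed in that range, but the called probe sets changed. The brightest tested Mcm7 probe set was then not called with the block, nor the brightest Mcm6 probe set within the first batch. A dim Mcm6 probe set, 1447756_x_at (mean signal 48.3), was called in both of these fits. Of the brightest probe sets of Mcm5, Mcm6 and Mcm7, only that of Mcm5 then passed in all 3 fits. With the larger offset the median amplitude of the 10 brightest probe sets was 0.16, against 0.22. With all 24 arrays taken as separate, the counts were 12, 11 and 14, and 5 for CT 18 against CT 10, but near-copies then count 2 times. Rhythm calls over all tested probe sets then rose to 27.4%, 31.7% and 25.6%, from 10.2%, 16% and 10.1%. The labels give only a letter B to second arrays, which does not pair them across times. The replicate block over all 24 arrays gave 11, 11 and 14, against 26.6%, 32.2% and 26.6% of all tested probe sets. It gave 6 for CT 18 against CT 10 and 19 among the 6 times. The time point as a random block over all 24 arrays gave 9 with the array batch fitted and 15 for the first batch alone. In those fits 26.9% and 31.2% of all tested probe sets were called. Without the profiles with an Acta1 signal over 1000, the counts were 3 without a block, 1 for CT 18 against CT 10 and 6 among the 6 times. In that setting 5.48% of all tested probe sets were called without a block. Without the 6 averaged profiles the rhythm counts were 0, 1 and 0, against 1.99%, 5.54% and 2.88% of all tested probe sets. Among the 6 times 2 were then called. Leaving out 1 profile at a time gave 3 to 6 without a block, 3 to 9 with it and 0 to 12 within the first batch. Over all tested probe sets the shares were 6.38% to 12.4%, 10.8% to 17.2% and 5.53% to 11.3%. The counts were 2 to 5 for CT 18 against CT 10 and 5 to 14 among the 6 times. For these last tests the share of all tested probe sets was not computed in the alternative settings. The cause of these changes was not tested. With 3 profiles a time, 5 of the 6 averaged pairs crossing the cycles and the batch holding 2 times alone, the course over 24 h and its repeat in the second cycle rest on few independent arrays. Among the settings run, none moved the fitted peak of a called brightest probe set by more than 6 h. Peaks of the other called probe sets were not checked in this way. The 3 called differences between CT 18 and CT 10 kept their sign wherever they were fitted.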
